A study of Mus musculus with 6 samples.

Results

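The mitosis and chromosome segregation genes are a list of 48 genes whose products condense the chromosomes, build the spindle, attach chromosomes to it, separate them and divide the cell. The list holds 10 role groups. A gene was represented by the probe sets of the array that carry its symbol and no other, and of these the one with the highest mean signal over all arrays was used. This gave 47 of the 48 genes, of 18193 genes represented in the same way. Ccnb1, which encodes a B-type cyclin, has no probe set with a single symbol here, so its signal is not analysed here.

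Signals were measured on 6 arrays, each hybridised with total RNA of the mammary glands of 1 female mouse. The mice had mixed 129, FVB and Black Swiss ancestry, and the study looked for targets of Brca1, a tumour suppressor that acts in DNA repair. Each of 3 stages has 1 mutant and 1 control array. The virgin mutant was Brca1 D11/D11;p53+/- and the virgin control Brca1 D+/+;p53+/-, both at 6 months. The pregnant mutant was Brca1 co/co/MMTV-Cre and the pregnant control Brca1 +/co/MMTV-Cre, both 5 months old and at day 16.5 of pregnancy. The lactating mutant was Brca1 D11/D11;p53+/- and the lactating control Brca1 D+/+;p53+/-, both 2 months old and at day 1 of lactation. All 4 virgin and lactating mice, controls included, lacked 1 copy of p53, and the labels give no p53 genotype for the pregnant mice. Both pregnant mice carried a Cre gene under the promoter of the mouse mammary tumour virus, which is active mainly in mammary epithelium, so deletion of the co allele is limited to cells that expressed Cre. The series' design text gives the D11 genotype for all mutants, and the sample labels were followed. Stage cannot be told apart from age. In comparisons with the pregnant pair it also cannot be told apart from the kind of Brca1 allele, the Cre gene or the labelled p53 genotype. For the lactating pair the same holds for an array date in the sample titles, which differs from that of the other 4 arrays.

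Mitosis begins when Cdk1 bound to cyclins A and B phosphorylates its many targets. Spindle microtubules then capture the kinetochores, the protein plates on each centromere, and a checkpoint holds back the anaphase-promoting complex until all chromosomes are attached. Most of these genes are transcribed from late S phase to mitosis and silent in resting cells, so in a whole gland their messages come mostly from dividing cells. The mammary epithelium divides through pregnancy and turns to milk secretion around birth.

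Values are MAS5 signals on a linear scale, 1 per probe set, deposited with every array at a common trimmed mean. Log2 ratios were computed from log2(signal + 52.1), which understates the change of dim genes. A difference of 2-fold is counted on this scale throughout. Median signals over all probe sets were 120 to 158 on the virgin and pregnant arrays and 211.2 in the lactating mutant and 230.8 in the lactating control. The 90th percentile of 20 probe sets of Y-linked genes, which have no target in female glands, was 185, and 24 of the 47 genes lay above it on all 6 arrays. Only Ndc80 lay below it on every array. The brightest of the 4 Brca1 probe sets gave 486.5 in the virgin mutant, 137 in the virgin control, 288 in the pregnant mutant, 159 in the pregnant control, 157 in the lactating mutant and 238 in the lactating control. A probe set outside the deleted part of Brca1 does not check the genotype, and where this one lies relative to exon 11 was not analysed here. Levels of different genes are not compared, since probe sets differ in brightness for equal amounts of RNA. In a whole gland, fewer cells of a type and less RNA per cell cannot be told apart.

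**Figure D1:**
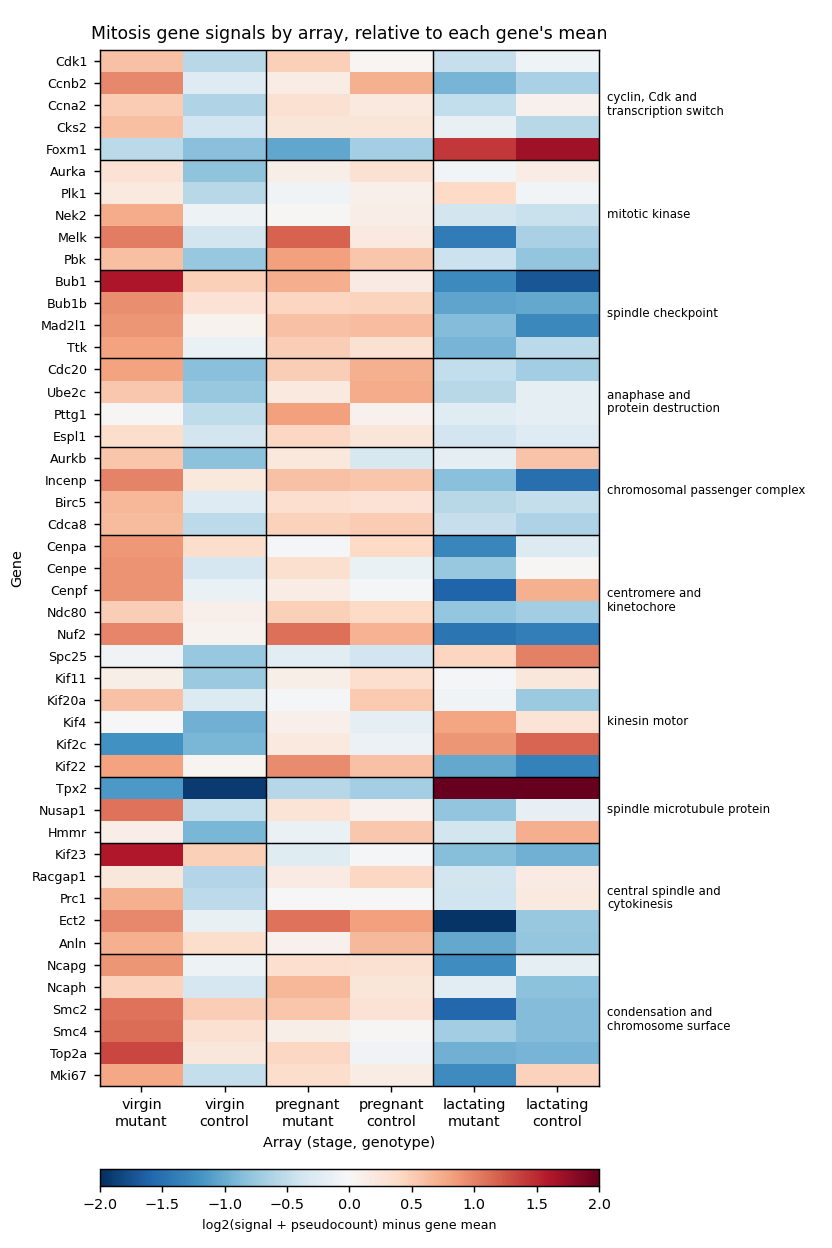
Signals of the 47 mitosis genes (rows, grouped by role) on the 6 arrays (columns), as log2(signal + 52.1) minus the gene's mean over the arrays, with colours ending at -2 and 2. The virgin mutant holds the highest signal of 27 genes and the virgin control of 0, while Foxm1, Spc25, Kif4, Kif2c and Tpx2 were brightest on both lactating arrays.

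In the virgin pair the mitosis genes were higher in the mutant almost without exception. Of the 47 genes 46 had a higher signal in the virgin mutant than in the virgin control, beside 54.6% of all genes. At least 2-fold higher were 20, beside 2.69% of all genes, and at least 2-fold lower were 0, beside 1.51%. On the virgin control array 31 of the 47 genes lay above 185, the level of the dark probe sets, and on the virgin mutant array 44. Among the 20, the control signals of Melk, Aurkb, Cenpe, Aurka and Hmmr lay below it, so the size of their ratios is not measured. The median log2 ratio was 0.93, against 0.04 over all genes. Single genes ranged from -0.31 for Kif2c, both of whose signals lay below 185, to 1.63 for Cdc20. Both virgin signals also lay below 185 for Ndc80 (146.6 in the mutant and 98.7 in the control) and Tpx2 (179.8 and 84.5). The direction of these genes is thus not measured, though they count among the 46. The summed signal of the 47 genes was 39549 in the virgin mutant, against 19304 in the virgin control. The virgin mutant held the highest of the 6 signals for 27 genes, beside 14.6% of all genes. With 1 array per genotype these ratios have no replicate check and no test.

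The genes that start mitosis shared this pattern. Cdk1, the kinase that drives entry into mitosis, had signals of 1228 in the virgin mutant, 530.5 in the virgin control, 1131 in the pregnant mutant, 825.5 in the pregnant control, 564 in the lactating mutant and 751 in the lactating control. The virgin mutant stood highest and the virgin control lowest. Ccnb2, a B-type cyclin, gave 884.5 in the virgin mutant and 351.5 in the virgin control (log2 ratio 1.21), and Ccna2, the cyclin of S phase and early mitosis, gave 1004 in the virgin mutant and 439 in the virgin control (log2 ratio 1.11). Cks2, a small protein that docks the cyclin-Cdk complex on its targets, gave 1383 in the virgin mutant and 669 in the virgin control (log2 ratio 0.99). Foxm1, the transcription factor that activates many G2 and mitosis genes, differed least in this group, with 317 in the virgin mutant and 249.6 in the virgin control (log2 ratio 0.29). Among the mitotic kinases, all 5 were higher in the virgin mutant with a median log2 ratio of 1.10. Melk gave 375 in the virgin mutant and 111 in the virgin control (log2 ratio 1.39), and Pbk gave 1043 in the virgin mutant and 377 in the virgin control (log2 ratio 1.35). Aurka, which acts at centrosomes and in spindle assembly, gave 417 in the virgin mutant and 166.5 in the virgin control (log2 ratio 1.10). Plk1, needed from mitotic entry to cytokinesis, gave 270.4 in the virgin mutant and 139.7 in the virgin control (log2 ratio 0.75), and Nek2, which helps separate the centrosomes, gave 515 in the virgin mutant and 265 in the virgin control (log2 ratio 0.84).

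The checkpoint and anaphase genes were higher in the virgin mutant in 8 of 8 cases. Cdc20, which activates the anaphase-promoting complex and is held by the checkpoint, had signals of 2142 in the virgin mutant, 655 in the virgin control, 1728 in the pregnant mutant, 2018 in the pregnant control, 843.5 in the lactating mutant and 727 in the lactating control. Its ratio in the virgin pair was the highest of the 47 genes. Ube2c, the ubiquitin-conjugating enzyme of the same complex, gave 1014.5 in the virgin mutant and 385 in the virgin control (log2 ratio 1.29). Pttg1, the securin that restrains separase, gave 1813 in the virgin mutant and 1249 in the virgin control (log2 ratio 0.52), and Espl1, the separase that cuts cohesin, gave 254 in the virgin mutant and 134 in the virgin control (log2 ratio 0.72). Of the checkpoint genes, Bub1 gave 607 in the virgin mutant and 247 in the virgin control (log2 ratio 1.14), and Ttk, the kinase that starts checkpoint signalling, gave 288 in the virgin mutant and 127 in the virgin control (log2 ratio 0.93). Bub1b gave 492 in the virgin mutant and 297 in the virgin control (log2 ratio 0.64), and Mad2l1, which binds Cdc20 at unattached kinetochores, gave 1103 in the virgin mutant and 606 in the virgin control (log2 ratio 0.81).

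The chromosomal passenger complex corrects wrong attachments and has 4 subunits on the list, all higher in the virgin mutant. Aurkb, its kinase, gave 364 in the virgin mutant and 108 in the virgin control (log2 ratio 1.38). Incenp, its scaffold, gave 1554.5 in the virgin mutant and 879 in the virgin control (log2 ratio 0.79), Birc5, or survivin, gave 833 in the virgin mutant and 415 in the virgin control (log2 ratio 0.92), and Cdca8, or borealin, gave 925 in the virgin mutant and 382 in the virgin control (log2 ratio 1.17). The 6 centromere and kinetochore genes were also all higher, with a median log2 ratio of 0.79. Cenpe, a kinetochore motor, gave 394 in the virgin mutant and 137 in the virgin control (log2 ratio 1.24), and Cenpf, a large outer kinetochore protein, gave 612 in the virgin mutant and 271 in the virgin control (log2 ratio 1.04). Cenpa, the histone H3 variant that marks centromeres, gave 856 in the virgin mutant and 583 in the virgin control (log2 ratio 0.52). The 3 genes of the Ndc80 complex, which binds microtubule ends, had log2 ratios of 0.40 (Ndc80), 0.90 (Nuf2) and 0.68 (Spc25). Both virgin signals of Ndc80 lay below 185, the level of the dark probe sets, so its direction is not measured.

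Spindle and cytokinesis genes were higher in the virgin mutant in 12 of 13 cases. Among the 12, both virgin signals of Tpx2 lay below 185 on the probe set used (179.8 in the mutant and 84.5 in the control), so its direction there is not measured. Its probe set 1428104_at gave 568 in the virgin mutant and 240 in the virgin control. Nusap1, which bundles spindle microtubules, gave 964.5 in the virgin mutant and 288 in the virgin control (log2 ratio 1.58), the ratio next to that of Cdc20 in size. Prc1, which bundles the midzone, gave 749 in the virgin mutant and 288 in the virgin control (log2 ratio 1.24), and Kif23, the motor of centralspindlin, gave 619.5 in the virgin mutant and 254 in the virgin control (log2 ratio 1.13). Ect2, which activates RhoA at the cleavage site, gave 591.5 in the virgin mutant and 244 in the virgin control (log2 ratio 1.12), and Anln, the scaffold of the contractile ring, gave 632 in the virgin mutant and 482 in the virgin control (log2 ratio 0.36). The kinesins Kif11, Kif20a, Kif4 and Kif22 had log2 ratios of 0.74 to 0.95. On the probe set used, Kif2c, which takes microtubules apart at centromeres, was the exception, with 64.6 in the virgin mutant and 92.5 in the virgin control (log2 ratio -0.31). Both signals lay below 185, the level of the dark probe sets, so this difference is not measured. Of the other 3 probe sets of Kif2c, 1432392_at was also lower in the virgin mutant (108 against 191 in the virgin control). The other probe sets, 1437611_x_at (432 against 119) and 1449060_at (299 against 41.3), were higher.

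Genes of chromosome condensation and the chromosome surface were higher in the virgin mutant in 6 of 6 cases. Top2a, the topoisomerase that disentangles sister chromatids, had signals of 1808 in the virgin mutant, 806 in the virgin control, 925 in the pregnant mutant, 651 in the pregnant control, 326 in the lactating mutant and 333 in the lactating control. Mki67, the Ki-67 protein that coats mitotic chromosomes and is used to mark dividing cells, had signals of 2628 in the virgin mutant, 1080.5 in the virgin control, 1945 in the pregnant mutant, 1689 in the pregnant control, 604 in the lactating mutant and 2109.7 in the lactating control. Each had its highest signal in the virgin mutant. Among the condensin subunits, Smc4 gave 3551 in the virgin mutant and 1994 in the virgin control (log2 ratio 0.82), Smc2 gave 1507 in the virgin mutant and 979 in the virgin control (log2 ratio 0.60), Ncapg gave 333.5 in the virgin mutant and 143 in the virgin control (log2 ratio 0.98) and Ncaph gave 1019.7 in the virgin mutant and 562 in the virgin control (log2 ratio 0.80).

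Other measures differed between the virgin arrays too. The 3' to 5' signal ratio of beta-actin, which rises as RNA degrades, was 2.03 in the virgin mutant and 2.74 in the virgin control, and that of Gapdh 1.516 in the virgin mutant and 3.502 in the virgin control. On the other 4 arrays it lay between 1.37 and 1.91 for beta-actin and between 0.732 and 1.20 for Gapdh. Skeletal muscle genes were lower in the virgin mutant in 10 of 10 cases, 8 of them at least 2-fold, with summed signals of 12885 in the virgin mutant and 38220 in the virgin control. Luminal epithelial markers were higher in 9 of 11 cases (summed 63566 in the virgin mutant and 54217 in the virgin control), and basal epithelial markers in 6 of 8 (21250 in the virgin mutant and 18394 in the virgin control). T cell markers were higher in 7 of 9 cases (9324 in the virgin mutant and 8126 in the virgin control), and B and plasma cell markers in 7 of 8 (9805.0 in the virgin mutant and 8045 in the virgin control). Macrophage markers were higher in 2 of 9 cases (36817 in the virgin mutant and 41493 in the virgin control), adipocyte markers in 3 of 7 (70584 in the virgin mutant and 78661 in the virgin control), fibroblast markers in 2 of 7 and endothelial markers in 3 of 7. No marker was at 0. The part of these in the mitosis gene ratios was not tested.

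The ratio held on other probe sets. Of the 47 genes 32 had several, and 23 of the probe sets not used had a mean signal above that of the dark Y-linked ones at the 90th percentile. Of these 23, 21 were higher in the virgin mutant, 13 in the pregnant mutant and 6 in the lactating mutant, each against its own control. The median log2 ratio of the virgin pair stayed between 0.72 and 1.07 under other scalings, pseudocounts, filters and probe set choices.

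**Figure D2:**
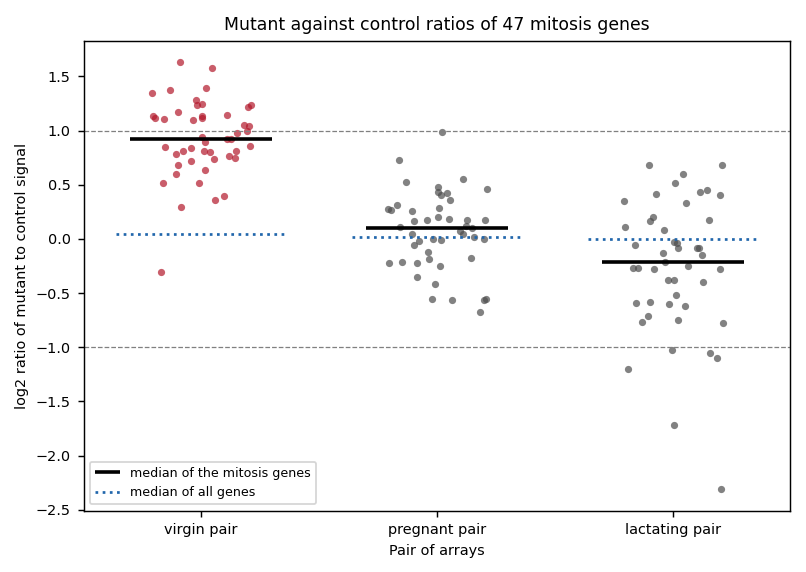
Log2 ratios of mutant to control signal (vertical axis) of the 47 mitosis genes in the virgin, pregnant and lactating pairs, 1 point per gene, with the medians of these genes (black bars) and of all genes (dotted lines). Dashed lines mark a 2-fold difference. Medians were 0.93, 0.10 and -0.21, and 20, 0 and 0 genes were at least 2-fold higher in the mutant.

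In the pregnant pair the mitosis genes differed little between the genotypes. The signal was higher in the pregnant mutant for 29 of 47 genes, beside 52.5% of all genes. No gene reached 2-fold in either direction, beside 2.24% of all genes higher and 1.59% lower. Their median log2 ratio was 0.10, against 0.02 over all genes. Melk, a kinase found in dividing cells, gave the highest ratio, with 425 in the pregnant mutant and 188 in the pregnant control (log2 ratio 0.99). Pttg1 gave 3204 in the pregnant mutant and 1909 in the pregnant control (log2 ratio 0.73), and its signal in the pregnant mutant was the highest of the 6 arrays. Hmmr, a microtubule-binding protein of the spindle, gave the lowest ratio, with 327.5 in the pregnant mutant and 553 in the pregnant control (log2 ratio -0.67). The cyclin Ccnb2 and the ubiquitin enzyme Ube2c were also lower, at log2 ratios of -0.56 and -0.55. The 6 genes of condensation and the chromosome surface were all higher, by log2 ratios of 0.02 to 0.48. Luminal markers were lower in the pregnant mutant in 10 of 11 cases (summed 72892 in the pregnant mutant and 94320 in the pregnant control), and fibroblast markers were higher in 7 of 7 (70968 in the pregnant mutant and 62567 in the pregnant control). Higher in the pregnant mutant were also 8 of 9 T cell, 7 of 8 B and plasma cell, 9 of 10 skeletal muscle and 6 of 7 endothelial markers, 3 of 8 basal, 3 of 7 adipocyte and 4 of 9 macrophage markers. Their part in the ratios of this pair was not tested.

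In the lactating pair 32 of 47 genes were lower in the mutant, beside 50.1% of all genes. At least 2-fold higher were 0, beside 4.35% of all genes, and at least 2-fold lower were 6, beside 4.89%. The median log2 ratio was -0.21, against -0.00 over all genes, and the summed signal was 18466 in the lactating mutant and 22577 in the lactating control. Cenpf gave 65.1 in the lactating mutant and 529 in the lactating control (log2 ratio -2.31), and Mki67 gave 604 in the lactating mutant and 2109.7 in the lactating control (log2 ratio -1.72). Ect2 gave 32.3 in the lactating mutant and 142.5 in the lactating control (log2 ratio -1.21), Hmmr gave 269.5 in the lactating mutant and 637 in the lactating control (log2 ratio -1.10), Ncapg gave 36.1 in the lactating mutant and 131 in the lactating control (log2 ratio -1.06), and Cenpa gave 150.4 in the lactating mutant and 361 in the lactating control (log2 ratio -1.03). For Ect2 and Ncapg both lactating signals lay below 185, the level of the dark probe sets, so the size of their ratio is not measured. The kinetochore group was lower in the lactating mutant in 6 of 6 cases, with a median log2 ratio of -0.68. Among these, both lactating signals lay below 185 for Nuf2 (19.9 in the mutant and 24.1 in the control) and Ndc80 (29.9 and 34.8). The direction of these genes is thus not measured. A dimmer probe set of Cenpf, 1452334_at, did not show the Cenpf difference, with 280 in the lactating mutant and 275 in the lactating control. For Cenpa, 1441864_x_at gave a smaller difference, with 332.5 in the lactating mutant and 419 in the lactating control (log2 ratio -0.29). Its probe set 1444416_at (20.2 against 177.5) lay below 185 on both arrays. Other probe sets of Hmmr disagreed. Little difference was seen on 1427541_x_at, with 207 in the lactating mutant and 226 in the lactating control. On 1450156_a_at (83.6 against 234) and 1450157_a_at (82.1 against 190) the mutant was lower, and 1429871_at lay below 185 on both arrays. Incenp, the scaffold of the passenger complex, gave the highest ratio, with 401.5 in the lactating mutant and 230.1 in the lactating control (log2 ratio 0.68). Its probe set 1423092_at went the other way, with 50.1 in the lactating mutant and 203.5 in the lactating control, as did 1423093_at, with 351 in the lactating mutant and 423 in the lactating control. Luminal markers were higher in the lactating mutant in 10 of 11 cases, with summed signals of 112660 in the lactating mutant and 75249 in the lactating control. Fibroblast markers were higher in 7 of 7 cases (17224 in the lactating mutant and 11708 in the lactating control) and basal epithelial markers in 6 of 8. Adipocyte markers were lower in 6 of 7 cases (11510 in the lactating mutant and 17570 in the lactating control), skeletal muscle markers in 7 of 10 and macrophage markers in 6 of 9. T cell, B and plasma cell and endothelial markers were higher in 6 of 9, 4 of 8 and 4 of 7 cases. The part of these shifts in the ratios was not tested.

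Over all 3 pairs, with the stage as a block in a limma model, 0 of the 47 genes differed between mutant and control after adjustment over all genes, as did 0% of all genes. The lowest adjusted p of the list was 0.9622. At an unadjusted p under 0.05 there were 5 genes, all higher in the mutants, beside 2.67% of all genes. These were Ncaph, Kif22, Pbk, Bub1 and Incenp, with log2 ratios of 0.61 ± 0.17, 0.48 ± 0.17, 0.66 ± 0.25, 0.71 ± 0.28 and 0.51 ± 0.20 (limma SE, 3 pairs). On the probe sets used, they and Kif4 and Smc4 were the 7 genes that were higher in the mutant in all 3 pairs, beside 14.3% of all genes, and 0 were lower in all 3, beside 10.8%. Both lactating signals of Bub1 (37.4 and 14.1) lay below 185, so its direction there is not measured. The lactating mutant was lower on 1423920_at of Ncaph (209 against 278), 1427276_at of Smc4 (187 against 292) and 1423092_at and 1423093_at of Incenp. On 1427275_at of Smc4 it was higher (1144 against 1043), but the pregnant mutant was lower (1620 against 1713). The list's median log2 ratio was 0.27, against 0.02 over all genes. Without the virgin pair the list's median was -0.02, without the pregnant pair 0.32, and without the lactating pair 0.49.

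Between the stages, glands at day 1 of lactation stood apart from glands of late pregnancy and from virgin glands. In the same limma model, whose terms are stage and genotype, each stage has 2 arrays. In it 17 of 47 genes passed an adjusted p of 0.05 between lactating and pregnant glands. Of these 15 were lower in lactating glands, beside 10.6% of all genes, and 2 were higher, beside 14.7%. Over the 47 genes the median was -0.78, against 0.15 over all genes. For 20 genes both lactating signals lay below the other 4, beside 21.4% of all genes, and for 5 both lay above them, beside 32.5%. The lowest of the 6 signals was on a lactating array for 30 genes, beside 35.3% of all genes.

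**Figure D3:**
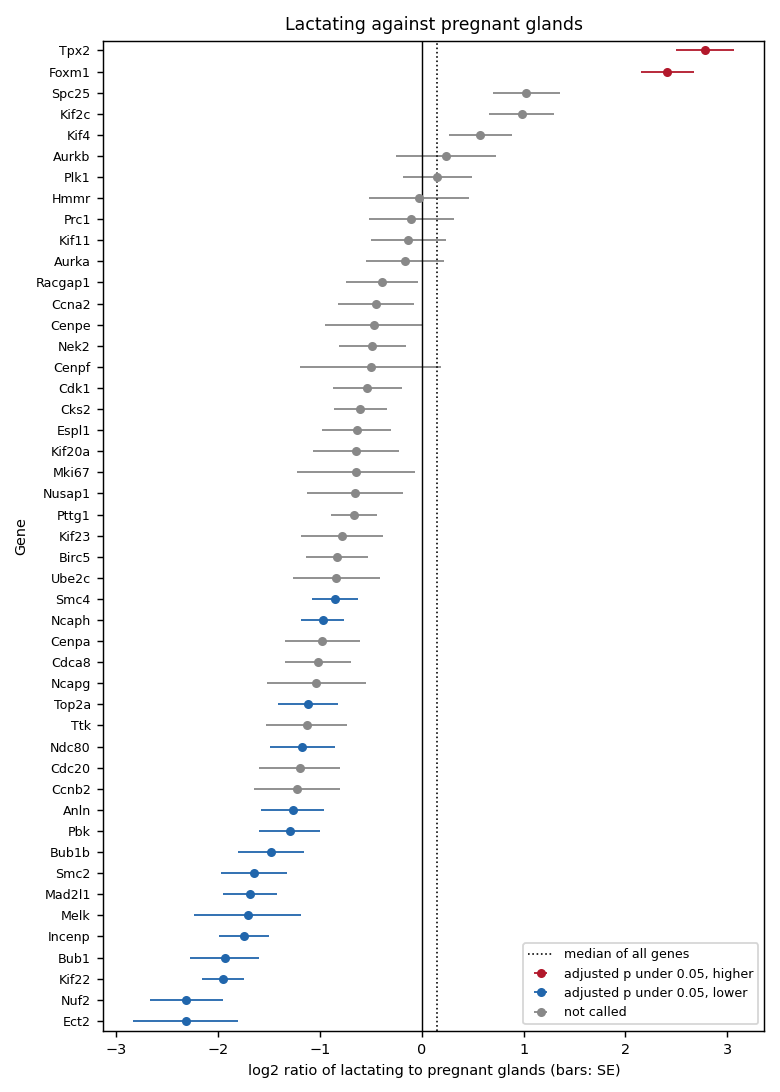
Log2 ratio of lactating to pregnant glands (horizontal axis, bars: limma SE, 2 arrays per stage) for each of the 47 mitosis genes, ordered by ratio, with the median of all genes as a dotted line. Tpx2 and Foxm1 were called higher and 15 genes lower, among which Ect2 and Nuf2 had the lowest ratios.

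The 15 genes called lower in lactating glands came from every role group but the cyclin and Cdk group, the anaphase group and the spindle microtubule proteins. Kif22, a motor that pushes chromosome arms outward, had signals of 1637.5 in the virgin mutant, 961 in the virgin control, 1814 in the pregnant mutant, 1402 in the pregnant control, 424 in the lactating mutant and 327 in the lactating control. Both lactating signals lay below the other 4, and the log2 ratio of lactating to pregnant glands was -1.95 ± 0.20 (limma adjusted p = 0.003433). Nuf2, of the Ndc80 complex, had signals of 337 in the virgin mutant, 157 in the virgin control, 371 in the pregnant mutant, 267 in the pregnant control, 19.9 in the lactating mutant and 24.1 in the lactating control. Its lactating signals were at the level of the dark probe sets, whose median was 33.6, and the log2 ratio was -2.31 ± 0.36 (limma adjusted p = 0.008194). Ndc80 of the same complex was called lower by 1.18 ± 0.32 on the log2 scale (limma adjusted p = 0.03569). Its signals lay below 185, the 90th percentile of the dark probe sets, on every array, so this difference is not measured. Incenp fell by 1.74 ± 0.25 (limma adjusted p = 0.00644) on the probe set used. Its probe set 1423092_at was lower too, while 1423093_at was higher, with 351 in the lactating mutant and 423 in the lactating control, against 143 in the pregnant mutant and 70.7 in the pregnant control. The checkpoint genes Mad2l1, Bub1 and Bub1b had log2 ratios of -1.68, -1.93 and -1.48, with limma adjusted p-values of 0.008219, 0.01076 and 0.01934. Signals of Bub1 were 607 in the virgin mutant, 247 in the virgin control, 304 in the pregnant mutant, 190.3 in the pregnant control, 37.4 in the lactating mutant and 14.1 in the lactating control. Its 2 lactating signals were the only ones under 190.

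Condensation and cytokinesis genes fell as well. Smc2 and Smc4, the core subunits of condensin, had log2 ratios of -1.64 ± 0.32 (limma adjusted p = 0.01452) and -0.85 ± 0.22 (limma adjusted p = 0.03206). Ncaph, a condensin subunit that bridges the Smc heads, and Top2a had ratios of -0.97 ± 0.21 (limma adjusted p = 0.01919) and -1.12 ± 0.29 (limma adjusted p = 0.03165). Ect2 had signals of 591.5 in the virgin mutant, 244 in the virgin control, 648 in the pregnant mutant, 531 in the pregnant control, 32.3 in the lactating mutant and 142.5 in the lactating control, and its ratio was -2.32 ± 0.51 (limma adjusted p = 0.02054), with both lactating signals below the level of the dark probe sets. Anln fell by 1.27 ± 0.31 (limma adjusted p = 0.0254). The kinases Pbk and Melk had log2 ratios of -1.29 and -1.71, with limma adjusted p-values of 0.02325 and 0.04941. Genes that did not pass include Cdk1 at a log2 ratio of -0.53, Cdc20 at -1.20, Ccnb2 at -1.23, Mki67 at -0.65 and Aurka at -0.17. The 2 lactating signals of Mki67, 604 in the mutant and 2110 in the control, lay below and above both pregnant signals, 1945 in the mutant and 1689 in the control.

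Foxm1 and Tpx2 went the other way. Foxm1 had signals of 317 in the virgin mutant, 249.6 in the virgin control, 211 in the pregnant mutant, 283 in the pregnant control, 1382.5 in the lactating mutant and 1686.5 in the lactating control, and both lactating signals were at least 4-fold above every other. The log2 ratio of lactating to pregnant glands was 2.41 ± 0.26 (limma adjusted p = 0.003769). Tpx2, which activates Aurka and starts microtubules near chromosomes, had signals of 179.8 in the virgin mutant, 84.5 in the virgin control, 295 in the pregnant mutant, 268 in the pregnant control, 2123 in the lactating mutant and 2358 in the lactating control, and a ratio of 2.78 ± 0.29 (limma adjusted p = 0.003351). The probe sets of Tpx2 disagree. The x_at probe set of Tpx2, 1447519_x_at, gave 2186 in the lactating mutant and 2331 in the lactating control, against 206 in the pregnant mutant and 222 in the pregnant control. Another, 1428104_at, gave 163 in the lactating mutant and 207 in the lactating control, against 316 in the pregnant mutant and 370 in the pregnant control, and so ran with the other mitosis genes. For Foxm1, 1417748_x_at gave 907 in the lactating mutant and 787 in the lactating control, against 105 in the pregnant mutant and 21.0 in the pregnant control, while 1437138_at and 1448834_at stayed under 60 on all arrays, below the level of the dark probe sets.

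**Figure D4:**
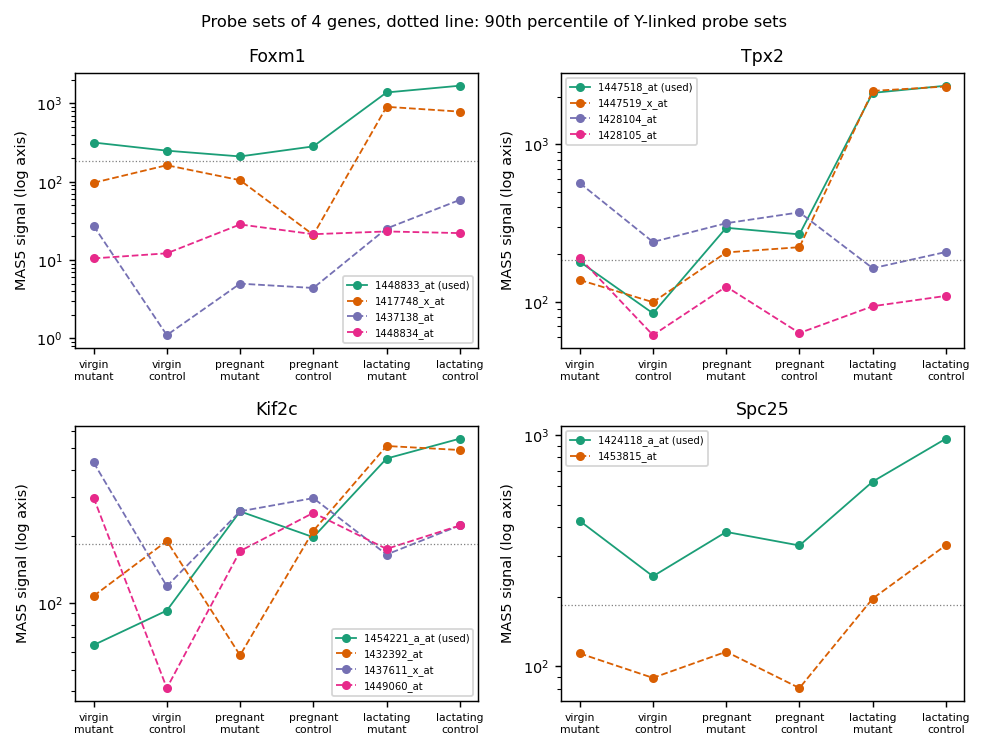
MAS5 signals (log axis) of all probe sets of Foxm1, Tpx2, Kif2c and Spc25 on the 6 arrays, with the probe set used as a solid line and the 90th percentile of the Y-linked probe sets, 185, dotted. Probe sets of 1 gene part at the lactating arrays for Tpx2 and Kif2c. Those of Spc25 and the brighter ones of Foxm1 were higher there, and the other Foxm1 probe sets stayed below the dotted line.

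Between lactating and virgin glands 19 of 47 genes passed, 5 higher, beside 24.1% of all genes, and 14 lower, beside 19.1%. Among the 14, Ndc80 lay below 185, the level of the dark probe sets, on every array, so its difference is not measured. The list's median log2 ratio was -0.59, against 0.17 over all genes. Tpx2 and Foxm1 were higher by 3.69 ± 0.29 (limma adjusted p = 0.000277) and 2.24 ± 0.26 (limma adjusted p = 0.001013). Kif2c was higher by 2.08 ± 0.32 (limma adjusted p = 0.00262) on the probe set used, Spc25 of the Ndc80 complex by 1.14 ± 0.33 (limma adjusted p = 0.02713) and the chromosome-bound motor Kif4 by 1.02 ± 0.31 (limma adjusted p = 0.03147). Both virgin signals of Tpx2 and Kif2c lay below 185, so the size of their ratios is not measured. The calls of Spc25 and Kif4 were lost when arrays were centred on their medians (limma adjusted p = 0.1739 and 0.2746), and that of Kif4 also with quantile normalization (0.1452). Among the 14 lower, Bub1 had a log2 ratio of -2.53 ± 0.34 (limma adjusted p = 0.001634), Top2a of -1.73 ± 0.29 (limma adjusted p = 0.003659) and Kif23 of -1.95 ± 0.40 (limma adjusted p = 0.008009). Smc4 had a ratio of -1.49 ± 0.22 (limma adjusted p = 0.002374), and its probe set 1427276_at was lower as well, with 187 in the lactating mutant and 292 in the lactating control, against 678 in the virgin mutant and 429 in the virgin control. Its probe set 1427275_at ran the other way, with 1144 in the lactating mutant and 1043 in the lactating control, against 509 in the virgin mutant and 319 in the virgin control. The lactating signals also lay above the virgin ones on 1423093_at of Incenp, at 351 in the lactating mutant and 423 in the lactating control, against 109 in the virgin mutant and 21.3 in the virgin control, and on dimmer probe sets of Bub1, Smc2 and Cenpa. For Top2a, 1442454_at had a higher mean in lactating than in virgin and in pregnant glands. Kif2c probe set 1437611_x_at gave 166 in the lactating mutant and 224 in the lactating control, against 432 in the virgin mutant and 119 in the virgin control.

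Between pregnant and virgin glands 0 of 47 genes passed, beside 3.23% of all genes higher and 3.9% lower. At an unadjusted p under 0.05 there were 6, 4 higher and 2 lower in pregnant glands. Of all 18193 genes 1791 were higher and 2436 lower at that threshold. The lowest adjusted p was 0.08733, for Kif2c, with a limma log2 ratio of 1.10 ± 0.32. Tpx2 followed with 0.91 ± 0.29, Pttg1 with 0.70 ± 0.23, and Kif23, at -1.17 ± 0.40, was the lowest of the 6. Both virgin signals of Kif2c (64.6 in the mutant and 92.5 in the control) and Tpx2 (179.8 and 84.5) lay below 185, so the size of these ratios is not measured. On their other probe sets the log2 ratio was -0.21, 0.20 and 0.53 for Kif2c and 0.65, -0.11 and -0.21 for Tpx2. For 4 genes, Pttg1, Kif11, Kif2c and Tpx2, both pregnant signals lay above both virgin signals, beside 26.1% of all genes, and for Kif23 and Smc4 both lay below, beside 30.3%. Smc4 probe set 1427275_at went the other way, with 1620 in the pregnant mutant and 1713 in the pregnant control, against 509 in the virgin mutant and 319 in the virgin control. On 1427276_at of Smc4 the pregnant signals, 617 and 542, lay between the virgin ones, 678 and 429. Among these 4 arrays the virgin control was lowest for 38 of 47 genes, beside 30.4% of all genes.

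The counts between stages rest on few arrays. Without the pregnant control 4 genes passed between lactating and pregnant glands (Foxm1 and Tpx2 higher, Kif22 and Nuf2 lower), without the pregnant mutant 5 and without the lactating mutant 11. Over all genes the count was 4605 with all arrays, 997 without the pregnant control, 638 without the pregnant mutant and 3722 without the lactating mutant. Between lactating and virgin glands 12 passed without the virgin mutant, and over all genes 4836 did, against 7855 with all arrays. Centring on array medians instead gave 2 higher and 25 lower genes between lactating and pregnant glands. The split over all genes moved with it, from 2669 higher and 1936 lower as deposited (58.0% higher) to 1797 and 2131 after quantile normalization (45.7%) and to 1049 and 3692 after median centring (22.1%). Between lactating and virgin glands the higher share was 55.9% as deposited, 43.5% after quantile normalization and 22.6% after median centring. The median of all genes moved to -0.26 between lactating and pregnant glands and to -0.42 between lactating and virgin glands under median centring. No mitosis gene called as deposited changed sign under these scalings.

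Genes of other cell types also differed between lactating and pregnant glands. Of the 7 fibroblast genes 7 were lower in lactating glands, with summed signals of 11708 to 17224 in lactating and 62567 to 70968 in pregnant glands. Macrophage genes were lower in 7 and higher in 1 of 9 cases, summing to 17040 to 22180 in lactating and 25737 to 30182 in pregnant glands. Adipocyte genes were lower in 5 of 7 cases, summing to 11510 to 17570 in lactating and 35867 to 44932 in pregnant glands, and skeletal muscle genes in 6 of 10. None of the 11 luminal genes passed, with sums of 75249 to 112660 in lactating and 72892 to 94320 in pregnant glands. No marker was at 0, and the part of these shifts in the mitosis gene ratios was not tested. Between pregnant and virgin glands 7 of 9 T cell genes and 5 of 8 B and plasma cell genes were lower in pregnant glands, and all 10 muscle genes were higher there.

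Further mitosis genes, not on the list of 48, gave 82 with a probe set of 84 sought. In the virgin pair 70 of them were higher in the mutant and 16 at least 2-fold, with a median log2 ratio of 0.56, beside 54.6% and 2.69% of all genes. In the pregnant pair 49 were higher, beside 52.5% of all genes, with a median of 0.09. In the lactating pair 33 were higher and 49 lower, beside 50.1% of all genes lower, with a median of -0.09. Between lactating and pregnant glands 13 of the 82 were lower and 7 higher, beside 10.6% and 14.7% of all genes. The lowest were Psrc1, Kifc1, Cenph and Kif20b, at log2 ratios of -2.11, -1.76, -1.65 and -1.65. Cdca3, a factor that promotes mitotic entry, was the highest of the 7, at 3.02 ± 0.31 (limma adjusted p = 0.003114), followed by the kinetochore genes Nsl1, Pmf1 and Knl1 at 1.69, 1.48 and 1.41. Between pregnant and virgin glands Ube2s, the chain-extending enzyme of the anaphase-promoting complex, was the 1 gene called, higher in pregnant glands at 1.31 ± 0.26 (limma adjusted p = 0.02807). Of all genes 3.23% were called higher and 3.9% lower there.

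Genes of DNA replication, which comes before mitosis in the cell cycle, were higher in the pregnant mutant. Of 48 such genes 44 were higher in the pregnant mutant, beside 52.5% of all genes, and 10 at least 2-fold, beside 2.24%, with summed signals of 49569 in the pregnant mutant and 30256 in the pregnant control and a median log2 ratio of 0.70. The mitosis genes had a median of 0.10 on the same 2 arrays. In the virgin pair 44 replication genes were higher in the mutant as well, beside 54.6% of all genes, and 2 at least 2-fold, beside 2.69%. There the replication genes had a median of 0.53 and the mitosis genes of 0.93, and in the lactating pair 0.22 and -0.21. Between lactating and pregnant glands 22 replication genes were lower and 2 higher, beside 10.6% and 14.7% of all genes. The difference between the lists was not tested.

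Genes that rise in G2 and mitosis often share promoter elements, the CHR, whose common form is TTTGAA, with TTCGAA as a variant, bound by the DREAM and MuvB complexes, and the CCAAT box bound by NF-Y. Promoters from 250 bases before to 50 after the annotated start were read from RefSeq sequences of GRCm38.p6, which matched 40 of the 48 genes, Ccnb1 among them. The genes not matched were Ccna2, Foxm1, Pbk, Aurkb, Incenp, Kif20a, Tpx2 and Smc4. Both strands were searched. TTTGAA lay in 28 of 40 promoters (70.0%), against 20.2% of 27025 genes, and TTCGAA in 3 (7.5%), against 1.80%. One or the other lay in 29 (72.5%, against 21.7%). CCAAT lay in 30 promoters (75.0%, against 41.1%), at least 2 times in 20 (50%, against 13.3%), and together with a hexamer in 26 (65.0%, against 8.61%). A hexamer within 50 bases of the start was present in 27 promoters (67.5%), against 6.12% of all genes. These matches are a description of the letters, not of binding.

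The promoters of 8 genes are shown to let the spacing be read, each on the strand of its gene, with 250 bases before and 30 after the start. The first 6 are those of the brightest matched genes of 6 role groups. Ccnb2 and Cdk1 were added after the motifs were seen, because each holds 3 CCAAT boxes and a hexamer near the start. Capitals mark the hexamers and the CCAAT box on either strand.

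Pttg1 promoter, GRCm38.p6 chr11:43425952-43426231, minus strand: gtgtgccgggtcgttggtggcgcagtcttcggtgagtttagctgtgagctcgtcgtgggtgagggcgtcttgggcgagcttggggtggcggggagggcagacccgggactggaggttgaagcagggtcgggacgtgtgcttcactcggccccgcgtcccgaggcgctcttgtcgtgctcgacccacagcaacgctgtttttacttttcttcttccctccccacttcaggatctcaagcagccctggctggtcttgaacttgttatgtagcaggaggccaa
Mki67 promoter, GRCm38.p6 chr7:135716350-135716629, minus strand: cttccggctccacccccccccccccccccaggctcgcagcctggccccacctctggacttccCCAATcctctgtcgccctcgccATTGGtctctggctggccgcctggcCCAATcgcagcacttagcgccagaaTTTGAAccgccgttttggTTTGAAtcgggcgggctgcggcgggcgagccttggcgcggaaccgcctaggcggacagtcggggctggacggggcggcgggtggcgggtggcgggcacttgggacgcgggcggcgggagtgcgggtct
Kif22 promoter, GRCm38.p6 chr7:127042391-127042670, minus strand: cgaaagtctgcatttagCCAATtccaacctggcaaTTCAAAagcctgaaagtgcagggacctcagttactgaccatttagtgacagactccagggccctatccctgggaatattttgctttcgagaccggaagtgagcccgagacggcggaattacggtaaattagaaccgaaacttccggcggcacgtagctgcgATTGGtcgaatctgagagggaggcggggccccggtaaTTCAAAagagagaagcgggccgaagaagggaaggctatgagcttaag
Cks2 promoter, GRCm38.p6 chr13:51644982-51645261, plus strand: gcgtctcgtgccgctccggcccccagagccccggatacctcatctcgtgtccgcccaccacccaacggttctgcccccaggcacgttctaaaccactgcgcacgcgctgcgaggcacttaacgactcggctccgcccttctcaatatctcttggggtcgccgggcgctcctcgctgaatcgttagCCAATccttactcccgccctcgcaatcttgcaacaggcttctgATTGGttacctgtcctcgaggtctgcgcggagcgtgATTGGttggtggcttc
Mad2l1 promoter, GRCm38.p6 chr6:66534971-66535250, plus strand: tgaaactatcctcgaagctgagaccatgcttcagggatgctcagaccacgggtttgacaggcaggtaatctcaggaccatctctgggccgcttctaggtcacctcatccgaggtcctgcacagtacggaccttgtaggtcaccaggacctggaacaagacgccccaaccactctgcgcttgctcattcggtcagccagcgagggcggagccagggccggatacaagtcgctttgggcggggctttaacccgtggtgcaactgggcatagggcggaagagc
Cdca8 promoter, GRCm38.p6 chr4:124936888-124937167, minus strand: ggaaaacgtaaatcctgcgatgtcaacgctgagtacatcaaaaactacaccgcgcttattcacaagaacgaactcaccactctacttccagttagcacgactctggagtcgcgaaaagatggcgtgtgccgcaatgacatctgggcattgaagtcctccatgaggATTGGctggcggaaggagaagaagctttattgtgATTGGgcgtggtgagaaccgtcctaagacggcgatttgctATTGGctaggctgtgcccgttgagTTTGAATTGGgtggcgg
Ccnb2 promoter, GRCm38.p6 chr9:70421525-70421804, minus strand: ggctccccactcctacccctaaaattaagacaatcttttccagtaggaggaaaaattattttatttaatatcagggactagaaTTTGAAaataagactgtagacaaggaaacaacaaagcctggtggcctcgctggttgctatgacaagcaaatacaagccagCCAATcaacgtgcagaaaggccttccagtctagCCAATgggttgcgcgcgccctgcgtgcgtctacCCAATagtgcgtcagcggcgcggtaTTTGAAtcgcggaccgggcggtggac
Cdk1 promoter, GRCm38.p6 chr10:69352883-69353162, minus strand: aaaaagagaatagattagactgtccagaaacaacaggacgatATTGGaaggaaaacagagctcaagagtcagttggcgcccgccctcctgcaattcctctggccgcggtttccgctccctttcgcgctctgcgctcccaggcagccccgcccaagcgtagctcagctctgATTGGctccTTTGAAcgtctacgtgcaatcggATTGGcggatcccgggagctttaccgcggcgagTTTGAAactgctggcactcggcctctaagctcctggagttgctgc

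In Ccnb2 the CCAAT boxes lie at -87, -54 and -21 relative to the start and the hexamers at -167 and 4. In Cdk1 the boxes lie at -208, -80 and -48 and the hexamers at -71 and -15. Neighbouring CCAAT boxes lay 31 to 34 bases apart in 10 of 39 neighbouring pairs of the mitosis genes (25.6%, in 9 genes), against 339 of 4577 pairs (7.41%) over all genes. Pttg1 and Mad2l1 hold neither motif in the window. In Cdca8 the hexamer shares a base with a CCAAT on the other strand. One more CCAAT of Cks2 lies beyond the printed bases. The 29 measured genes with a hexamer had a median log2 ratio of 0.98 in the virgin pair and the 10 without of 0.91, and of -0.84 and -0.75 between lactating and pregnant glands.

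**Figure D5:**
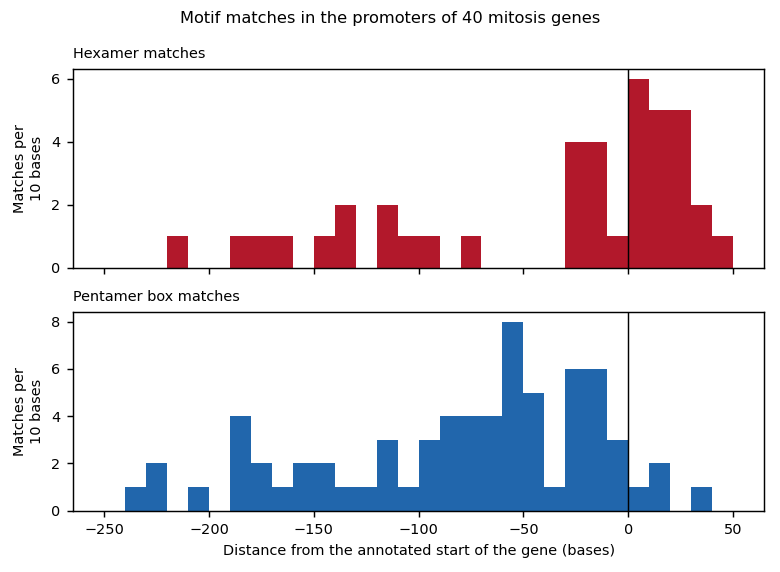
Matches per 10 bases (vertical axis) to the hexamers (top) and to the CCAAT pentamer (bottom) by distance from the annotated start (horizontal axis, bases) in the promoters of 40 mitosis genes, both strands counted. Of 40 hexamer matches 28 lie within 50 bases of the start, with a median at -10, and the 69 CCAAT matches have a median at -65.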

How the data were processed

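Biotin-labelled total RNA of 6 mammary glands was put on 6 mouse expression arrays, 1 gland each, per the labels' protocols. The deposited values are MAS5 signal intensities on a linear scale, 1 per probe set. The submitters' processing notes name MAS5. Its version was not given in the sources used here. Each array of the deposited table has a trimmed mean of 500 (2% cut from each end), so the arrays had been scaled to each other before deposit. Detection calls were not used here. A single gene symbol was carried by 34945 of the 45101 probe sets and several symbols by 932, and 64 were controls of the array.

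The log2 scale was computed here as log2(signal + 52.1), with the 25th percentile of all signals as the constant, and the brightest probe set stood for each of 18193 genes, with no filter. Limma 3.58.1 in R 4.3.3 (lmFit and eBayes with a variance trend, 2 residual degrees of freedom, prior 5.41) was fitted to all genes with stage and genotype as terms, with Benjamini-Hochberg adjustment over all of them and calls at 0.05. Within a pair there is 1 array per genotype and no test. Nothing says whether the mice were littermates. Within each pair the 2 arrays deviated together from their genotype's mean (correlation over genes, r = 0.491 pregnant, 0.788 virgin, 0.775 lactating), which describes the pairing by stage in the labels. The number of arrays limits the precision. The code was tested on simulated data.

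The members, the gene lists, the tests and the alternatives were chosen with earlier results of these data known. All 47 genes could be named. Of the other lists, at most 4 genes with the largest ratio in each direction among those called were named, and promoters were those of the brightest gene of 6 role groups, plus 2. Alternative settings were median centring of each array, quantile normalization, a pseudocount at the 5th or 50th percentile, a filter at the median of all probe sets, the mean over all probe sets of a gene, leaving out probe sets of the _x_at and _s_at types, no variance trend, other model terms, and leaving out each pair or array. Using the second brightest probe set was added after seeing the data, and genes with 1 probe set kept it. Trp53 is not analysed here.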

Additional observations from a re-analysis of the deposited data

Results flagged for a closer look

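The median ratio of the mitosis genes had opposite signs in the virgin and lactating pairs. The median of their log2 ratios, mutant over control, was 0.93 in the virgin pair and -0.21 in the lactating pair. In the lactating pair 32 genes were lower and 15 higher in the mutant, and after median centring 26 and 21. Both lactating signals lay below 185 for Melk, Bub1b, Ttk, Espl1, Ndc80, Nuf2, Ect2 and Ncapg among the 32. The same held for Bub1, Kif20a and Kif23 among the 15. With 1 pair per stage, the difference between the stages was not tested.

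For 4 genes the mutant was at least 2-fold above its control in the virgin pair and at least 2-fold below it in the lactating pair. Cenpf had log2 ratios of 1.04 in the virgin and -2.31 in the lactating pair. On its dimmer probe set 1452334_at the lactating ratio was 0.02, and on 1458447_at, below 185 on all arrays, it was -0.32. Hmmr had ratios of 1.05 in the virgin and -1.10 in the lactating pair. On other probe sets of Hmmr the lactating ratio was -0.10 (1427541_x_at), -1.08 (1450156_a_at), -0.85 (1450157_a_at) and 0.14 (1429871_at). Ect2 had ratios of 1.12 in the virgin and -1.21 in the lactating pair. Both lactating signals of Ect2, 32.3 in the mutant and 142.5 in the control, lay below 185, the level of the dark probe sets, so its ratio there is not a measured change. Mki67 had ratios of 1.24 in the virgin and -1.72 in the lactating pair. The differences of these 4 genes between the pairs were not tested either.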

How the results depend on the processing

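The median log2 ratio of the virgin pair was 0.74 after quantile normalization, 0.77 after median centring, 1.07 with a pseudocount of 7.9 and 0.72 with one of 168.7. That of the lactating pair was -0.11 after median centring. Between lactating and pregnant glands 27 genes passed after median centring and 11 on the mean over all probe sets of a gene, and between lactating and virgin glands 29 and 11. Of all 18193 genes 4741 and 3693 passed in the first comparison, and 8119 and 6866 in the second. Between pregnant and virgin glands 1 passed with the filter on dim genes, which left 41 of the 47 (Kif2c, higher in pregnant glands), beside 1687 of 11562 genes. Both virgin signals of Kif2c lay below 185, and its probe set 1432392_at had a log2 ratio of -0.21 and the other 2 of 0.20 and 0.53. On the second brightest probe set, an alternative chosen after seeing the data, 1 passed (Smc4, higher in pregnant glands), beside 1129 of 18193 genes. Under that setting 13 genes passed between lactating and pregnant glands, 5 of them higher, beside 3688 of all genes, 2161 of them higher. The 15 mitosis genes with 1 probe set kept it. Of the genes called lower, Ect2, Mad2l1, Nuf2 and Pbk are among these 15, so their calls rest on the same probe set as before. Between lactating and virgin glands 17 passed, beside 6783 of all genes, 4264 of them higher. Kif4, Ect2, Mad2l1 and Nuf2, which are among the 17, also have 1 probe set. Of the 17, 9 were higher, among them Smc2, Smc4, Bub1 and Cenpa, which were lower on the brightest. The cause was not tested. Leaving out 1 array gave 0 to 1 between pregnant and virgin glands, 4 to 21 between lactating and pregnant glands, and 12 to 23 between lactating and virgin glands. The lone array of a stage is then assumed to vary like the others. Mutant against control gave 0 genes when each pair was left out and 0 with no replicate block. With 2 arrays per stage, a gene that missed the threshold is not shown to be unchanged, and dim genes such as Ndc80 lie near the level of dark probe sets.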
